A study of Mus musculus with 58 samples.

Results

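The genes of oxidative phosphorylation were followed in single parvalbumin (PV) interneurons of the mouse ventral subiculum, the output field of the ventral hippocampus. Members were chosen by symbol alone, as every row of the count table whose symbol began with Nduf, Uqcr, Cox4 to Cox8, Atp5, mt-Nd, mt-Co, mt-Cytb or mt-Atp, or was Sdha, Sdhb, Sdhc or Sdhd, leaving out symbols with -ps, of which there were 0. This gave 105 of 25648 genes, 92 nuclear and 13 encoded by mitochondrial DNA. Of these, 102 (89 nuclear and all 13 mitochondrial) passed the filter on low counts and were tested between the sexes, and Cox4i2, Cox8c and Ndufa4l2 did not.

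Oxidative phosphorylation is carried by 5 complexes in the inner mitochondrial membrane. Complex I (NADH dehydrogenase) and complex II (succinate dehydrogenase) feed electrons into the chain, complex III passes them to cytochrome c, complex IV (cytochrome c oxidase) hands them to oxygen, and complex V (ATP synthase) uses the resulting proton gradient to make ATP. A small set of core subunits is made inside the mitochondrion from its own genome, and all other subunits, with the assembly factors, come from nuclear genes. PV interneurons are fast-spiking inhibitory cells known for their dense mitochondria and high energy use.

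The cells came from PV-Cre::Ai9 mice, in which Cre recombinase driven from the parvalbumin gene switches on a red reporter, and no treatment is named in the labels. Cytosol was taken up through a patch pipette 1 cell at a time, and 58 cells were taken from 4 male and 3 female animals. The labels mark 54 as Pass and 4 as Fail; the Pass cells were 14 from males at postnatal day 35 (P35), 13 from males at P36, 17 from females at P40 and 10 from females at P42. Cells are not tied to animals in the labels, so comparisons between sexes rest on these 4 pools, 2 per sex, and sex and age cannot be told apart because the females were the older animals throughout.

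A Pass cell had between 2.05 and 52.3 M counts (median 11.5 M). Summed counts were 173 and 162 M for the male and 229 and 123 M for the female pools. Gad1, which makes GABA, ranged from 1337 to 6751 CPM (counts scaled to a common library total) over the 54 Pass cells, and Pvalb itself from 1.18 to 788 CPM. Markers of other interneurons were high in some of these cells: Sst lay above Pvalb in 14 of 54, male P35 cell 3 among them (3298 against 2.49 CPM), and Vip reached 2329 CPM in male P36 cell 3, with a median of 0.145 CPM. Excitatory neuron markers summed to 22.0 to 1030 CPM (6 genes), with a median of 0 for Tbr1. Summed markers had medians of 483 CPM for oligodendrocytes, 103 CPM for microglia and 77.2 CPM for red blood cells. Female P40 cell 3 held 52.3 M counts, and female P40 cell 15 held 29770 CPM of red blood cell markers. These cells had the 2 highest mitochondrial shares, and the range, the main correlations and the sex difference of that share are given with and without them.

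Nuclear oxidative phosphorylation genes were present in nearly every cell. Of the 92, 85 had at least 1 count in all 54 Pass cells, and 83 still did after each cell was thinned to 2000000 counts. The other 7 were isoforms of limited tissue range, all of complex IV. Together the 92 genes took 2.67% of the counts in the lowest cell, 3.66% in the median cell and 4.88% in the highest. Complex V contributed 1.24% of all counts in the median cell, complex I 1.17%, complex IV 0.647%, complex III 0.404% and complex II 0.194%.

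To compare genes, levels were divided by gene length (CPM per kilobase of all annotated exons) and given as the median over the 54 cells. By complex, the median over the ubiquitous nuclear subunits was 190 CPM per kilobase in complex I (36 genes), 234 in complex II (4 genes), 301 in complex III (8 genes), 387 in complex IV (11 genes) and 206 in complex V (15 genes). The pools lay close to each other. Complex IV stood at 396 and 349 in the males of P35 and P36 and at 398 and 412 in the females of P40 and P42. Complex I stood at 187 and 174 against 193 and 200, so both were lowest in the male P36 pool. The place of complex V depended on the length used: with the longest transcript of each gene it was 474, against 486 for complex IV and 249 for complex I.

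**Figure D1:**
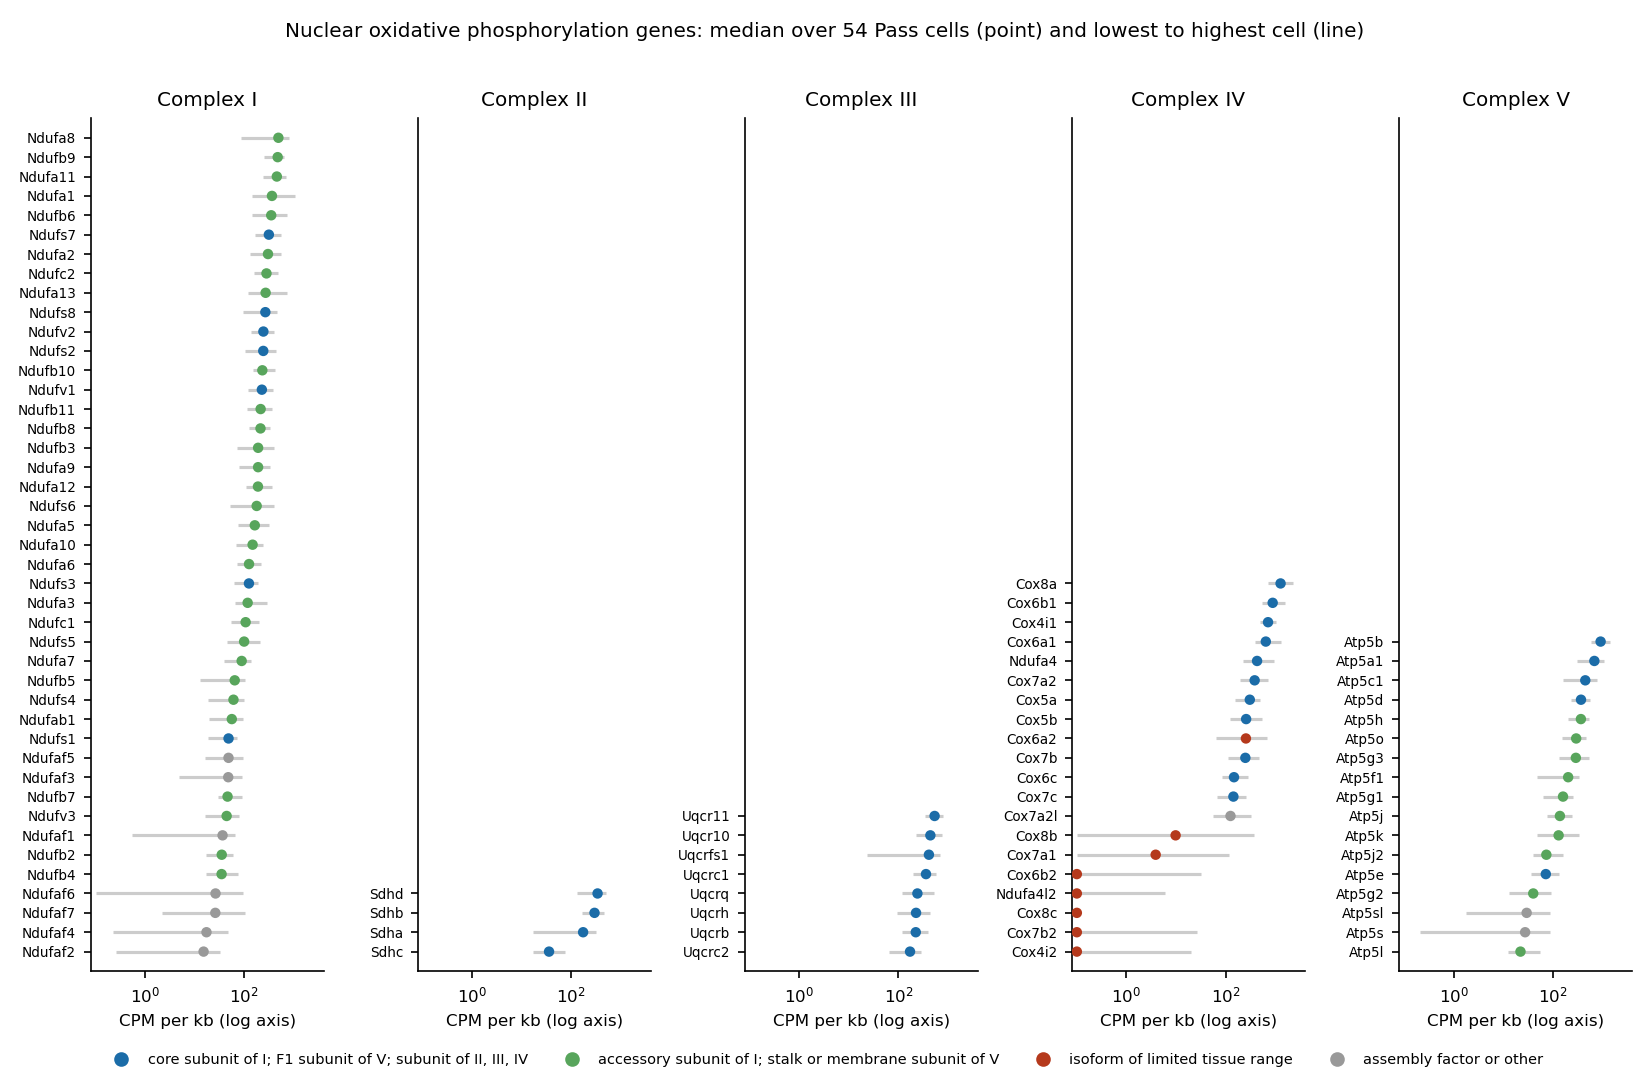
Level of each of the 92 nuclear genes by complex, in CPM per kilobase on a log axis; the point is the median over 54 Pass cells, the line runs from the lowest to the highest cell, and values under 0.1 are drawn at 0.1. Cox8a is the highest point of all at 1292, the 7 assembly factors and 7 of the 8 isoforms of limited tissue range sit low in their complexes, and Cox6a2 sits among the ubiquitous subunits of complex IV.

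In complex I, the core subunits that carry the flavin and the iron-sulfur clusters had a median of 243 CPM per kilobase (7 genes) and the accessory subunits 179 (29 genes). Ndufa8 (490) and Ndufb9 (474), both accessory subunits, were the highest, and Ndufb4 (35.0) was the lowest subunit. The 7 assembly factors, which build the complex without being part of it, lay lower as a group, at a median of 26.4. Their range was 15.2 for Ndufaf2 to 48.3 for Ndufaf5, which overlapped the lowest subunits.

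The 4 subunits of complex II did not have equal levels. Sdhd and Sdhc, the membrane anchors, had medians of 339 and 35.6 CPM per kilobase, and Sdhb and Sdha, the iron-sulfur and flavoprotein subunits, 294 and 173. That order rests on the lengths used, such as 2239 bases for Sdhb and 1231 for Sdhd. Without length Sdha was the highest in every pool (660 to 832 CPM), above Sdhb (623 to 712) and Sdhd (343 to 471). Sdhc stayed the lowest (93.9 to 155 CPM). Sdha was also the most uneven of the 4 across cells. It ran from 70.8 CPM to 1298 CPM with a median of 715, but the lowest value was 1 cell, male P35 cell 5, and the next lowest was 361 CPM. Uqcrfs1, the Rieske iron-sulfur protein of complex III, was lowest in the same cell at 31.7 CPM, with a median of 563.

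Among the 8 nuclear members of complex III, Uqcr11 (538 CPM per kilobase) and Uqcr10 (442), small subunits, were the highest and Uqcrc2 (172), a core protein, the lowest. Cyc1, also of complex III, fell outside the symbol rule and is not in the levels or shares of that complex. It had a median of 861 CPM. In complex IV, Cox8a (1292) and Cox6b1 (895) led, and Cox7c (144) was the lowest ubiquitous subunit. In complex V the 5 subunits of the F1 head, which holds the catalytic sites, had a median of 456 against 151 for the 10 stalk and membrane subunits. Atp5b (930) and Atp5a1 (696), the beta and alpha subunits of F1, were the highest and Atp5l (22.5), subunit g of the membrane part, the lowest. The place of Atp5l rests on its annotated length of 6443 bases. Without length it had 127 to 144 CPM over the pools, above Atp5k with 68.7 to 89.4 CPM. F1 subunit Atp5e (72.9) lay below most stalk and membrane subunits.

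Several subunits have more than 1 gene, and in most such families a single form carried nearly all transcripts. Cox4i1, Cox6b1, Cox7b, Cox8a and Ndufa4 each were the higher form in 54 of 54 cells, with median shares of their family's level per kilobase of 100%, 100%, 100%, 99.3% and 100%. The counterparts Cox4i2, known from lung, and Cox6b2, known from testis, had a count in 7 and 32 cells. Cox7b2 had one in 25 cells and Ndufa4l2, a gene induced by low oxygen, in 5. Cox8c had 0 counts in 54 cells, which allows a share of cells with a count of up to 6.60% (exact 95% binomial interval, counting error only). In the Cox7a family, Cox7a2 took a median of 74.7%, Cox7a2l, now known as a factor that ties complexes III and IV together, 24.3%, and the muscle form Cox7a1 0.908%. For the c ring of ATP synthase, Atp5g3 took 61.4%, Atp5g1 31.4% and Atp5g2 7.40%, and Atp5g3 was the highest of the 3 in 53 of 54 cells. That order depended on the lengths used, 4912 bases for Atp5g1 and 2181 for Atp5g3. Without length, Atp5g1 had 817 and 826 CPM in male P35 and P36 and 624 and 778 CPM in female P40 and P42. Atp5g3 had 643, 724, 642 and 680 CPM in the same order, so it was the higher only in female P40.

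The Cox6a family was also divided between its forms. Cox6a2, the isoform known from heart and skeletal muscle, had counts in 54 of 54 cells, reached 10 CPM in all of them and 100 CPM in 45 (83.3%, exact 95% binomial interval 70.7% to 92.1%). It ran from 42.9 CPM in male P35 cell 9 through a median of 176 to 458 CPM in female P40 cell 8. Cox6a1, the ubiquitous isoform, ran from 276 through 457 to 941 CPM. Per kilobase the medians were 258 for Cox6a2 and 651 for Cox6a1, and Cox6a2 lay above Cox6a1 in 0 of 54 cells (upper limit 6.60%). After thinning it did so in 1 cell. Cox6a2 is on chromosome 7, minus strand, chr7:128205435-128206387, and Cox6a1 on chromosome 5, minus strand, chr5:115345642-115348981 (GRCm38).

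The share of Cox6a2 in the sum of both isoforms ranged from 6.80% to 48.3% between cells, with a median of 28.0%. Each pool spanned most of that range, from 6.80% to 40.2% among male P35 cells, 13.3% to 48.3% at P36, 11.4% to 42.6% among female P40 cells and 11.5% to 42.7% at P42. The pool medians were 27.2%, 23.7%, 31.5% and 29.8% in that order, so the female pools lay above the male pools by 5.15 percentage points. The exact two-sided permutation test over the 6 assignments of the pools gave p = 0.33, the smallest it can give. The difference was 0.804 points with means in place of medians and 0.163 points in summed counts. In summed counts the Cox6a2 level was 184, 201, 190 and 194 CPM in the 4 pools and Cox6a1 470, 469, 445 and 486 CPM, with overlap between the sexes for both.

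**Figure D2:**
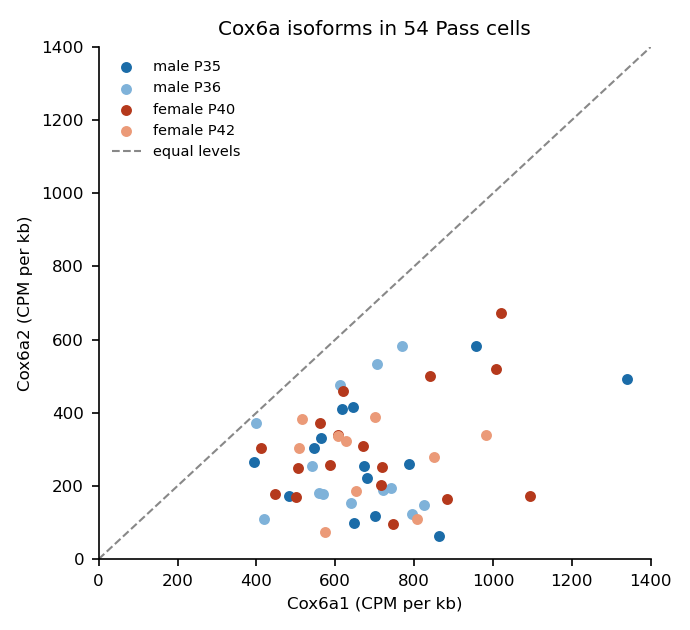
Cox6a2 against Cox6a1 in each of the 54 Pass cells, both in CPM per kilobase, coloured by pool; the dashed line marks equal levels. All 54 points lie below the line, from close to it down to a Cox6a2 share of 6.80%, and the 4 pools are intermixed.

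The other muscle isoforms were scarce in the same cells. Cox8b had a median of 3.54 CPM and reached 10 CPM in 14 cells, and Cox7a1 had a median of 2.08 CPM and reached 10 CPM in 5. Muscle markers were also low: Ckm, Tnnt2 and Mb had medians of 0 CPM, Myh7 0.591 CPM and Acta1 3.37 CPM. The highest cells held 237 CPM of Myh7 and 81.0 CPM of Acta1. The 5 muscle genes summed to between 0 and 249 CPM with a median of 19.3. That sum did not rise with Cox6a2 across cells (Spearman rho -0.25).

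Cox6a2 varied among cells apart from Cox6a1 (rho 0.09 over 54 cells; cells share animals and each library's total, so all correlations over cells are given as descriptions). The 5 tested genes most like it in rank over the 54 cells were Pgam2, the muscle form of the glycolytic enzyme phosphoglycerate mutase (rho 0.64), Cd24a, a cell surface glycoprotein (0.59), Ndufa9, an accessory subunit of complex I (0.57), Satb1, a nuclear organizer of interneurons from the medial ganglionic eminence (0.54), and Fgf12, an intracellular modulator of sodium channels (0.54). Within the 4 pools, rho with Pgam2 was 0.79, 0.48, 0.66 and 0.49 and rho with Ndufa9 was 0.89, 0.55, 0.46 and 0.43. Cd24a held a rho above 0 in 3 pools and was at -0.03 in female P42. The summed PV interneuron markers had a rho of 0.56 with Cox6a2, and 0.51 to 0.72 within the pools. Gad1 had 0.52, and Pvalb alone 0.06, with pool values from -0.67 in female P42 to 0.52 in male P35. The summed markers of VIP and other interneurons had -0.50 and those of excitatory neurons -0.47. Single genes led these sums. Gad1 had a median of 3560 CPM beside 5476 CPM for the PV sum, and Pvalb 86.9 CPM. Cck had 148 CPM beside 175 CPM for the VIP and other sum, and Camk2a 93.3 CPM beside 115 CPM for the excitatory sum. The part of these other cell types in the variation of Cox6a2 was not tested.

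Across cells, the nuclear subunits varied little and together. The SD of log2(CPM + 1) over the 54 cells had a median of 0.39 for the 74 ubiquitous subunits, against 0.70 for the 2128 genes of at least 100 CPM. Cox4i1 (0.24) and Atp5b (0.26) were among the steadiest. Pairs of these subunits had a median rho of 0.37, with 94.3% of pairs above 0. Pairs drawn from all genes of at least 100 CPM had a median of 0.02 and 53.9% above 0. Cox7b (0.81), Cox5a (0.78), Cox6c and Ndufab1 (both 0.77) followed the summed share of the other nuclear genes most closely, and Sdha (-0.04) did not follow it. These members were picked after their values were seen.

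The highest values of the 85 nuclear genes found in every cell were spread over 27 cells and the lowest over 21. Male P35 cell 5 was the highest for 17 of the 85 and the lowest for 7, Sdha and Uqcrfs1 among them, and male P35 cell 14 was the highest for 15. Male P36 cell 9 was the lowest for 9, and male P35 cell 3 and female P40 cell 2 for 8 each. The first 2 of these cells, male P35 cells 5 and 14, were shallow, at 3.22 and 2.07 M counts. They carried 8748 and 3611 CPM of oligodendrocyte markers, against a median of 483 CPM. Neither trait was particular to them. Female P40 cell 5, at 2.05 M counts, was the highest for 0 of the 85. Male P36 cell 4, with 12822 CPM of these markers, was the highest for 2, and male P35 cell 9, with 7638 CPM, for 0. The part of depth and of these transcripts was not tested.

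Among other genes of the pathway, cytochrome c, which ferries electrons from complex III to IV, stayed closest to the nuclear share. Cycs ran from 272 through 602 to 908 CPM and had a rho of 0.87 with that share, and 0 of the 14933 tested genes had a higher one. Slc25a4, the ADP/ATP carrier, had 0.75 and Atpif1, the inhibitor of ATP synthase, 0.70. The median was 0.38 over 10 transport and energy-buffering genes, 0.13 over 36 assembly factors, 0.07 over 14 genes that control mitochondrial expression, and -0.04 over all tested genes. In the last of these lists, the coactivator Ppargc1a had a median of 165 CPM and a rho of 0.28, and the mitochondrial transcription factor Tfam a median of 33.0 CPM and a rho of 0.10.

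Nuclear respiratory factor 1 (NRF1) is a transcription factor known for binding GC-rich palindromes in promoters of respiratory genes, so the member promoters were read for words of 10 bases that equal their own reverse complement. RefSeq promoters (build GRCm38.p6, 250 bases before the start) were matched by symbol for 73 of the 92 nuclear genes, and 19, Cox6a2 among them, had no match. The palindrome in the most members was GCGCATGCGC, which reads the same on both strands and has the form NRF1 is known to bind. It was in 5 of the 73 (6.85%), Atp5g2, Atp5k, Cox6a1, Ndufa11 and Ndufaf4, and in 0.877% of the 27025 genes with a promoter. The next, TGCGCGCGCA, was in 3 members (4.11%), Ndufb4, Ndufc1 and Ndufv3, and in 0.207% of all genes. The words were picked for being common in the members, so these shares are a description, and a match shows letters only. Stretches of 60 bases around the match are shown for 1 gene each of complexes IV, V and I, with the palindrome in capitals. They lie at chr5:115349086-115349145 on the minus strand (Cox6a1), chr15:102671055-102671114 on the minus strand (Atp5g2) and chr17:56717677-56717736 on the plus strand (Ndufa11), and are written 5′ to 3′ along the gene.
Cox6a1: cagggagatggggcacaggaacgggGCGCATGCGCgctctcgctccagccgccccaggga
Atp5g2: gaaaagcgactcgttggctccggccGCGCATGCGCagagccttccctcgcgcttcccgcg
Ndufa11: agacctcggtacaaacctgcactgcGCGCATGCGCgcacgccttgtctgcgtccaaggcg

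The palindrome begins 162 bases before the RefSeq start used for Cox6a1, 42 before that for Atp5g2 and 60 before that for Ndufa11. The Atp5g2 stretch lies inside the annotated gene, chr15:102662864-102672352 on the minus strand. Its start is therefore an internal one, not the outer end of the gene. The 3 genes with these promoters had median levels of 651, 40.6 and 456 CPM per kilobase, so genes sharing the palindrome did not share a level. Nrf1 itself had a median of 1.33 CPM, with a highest cell of 182 CPM.

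The 13 mitochondrially encoded genes behaved unlike the nuclear set. Their summed share of counts ran from 0.634% in male P36 cell 13 through a median of 1.45% to 10.9% in female P40 cell 15, a 17.2-fold range against 1.83-fold for the nuclear genes. That 1 cell carried much of the range, which was 7.03-fold without it and 6.29-fold without female P40 cells 3 and 15. The nuclear share was above the mitochondrial share in 51 of 54 cells (94.4%, exact 95% binomial interval 84.6% to 98.8%). The 13 genes moved together across cells, with a median pairwise rho of 0.89, and female P40 cell 15 was the highest cell for 13 of 13. Without female P40 cells 3 and 15 the median pairwise rho was 0.88. Nuclear and mitochondrial shares had a rho of 0.05 and a Pearson's r of -0.11 over 54 cells, and a rho of 0.06 after thinning. Without the same 2 cells rho was 0.15 and r 0.19, and within single pools rho ran from -0.15 in female P42 to 0.46 in male P36. Pairs of 1 nuclear subunit and 1 mitochondrial gene had a median rho of 0.10.

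**Figure D3:**
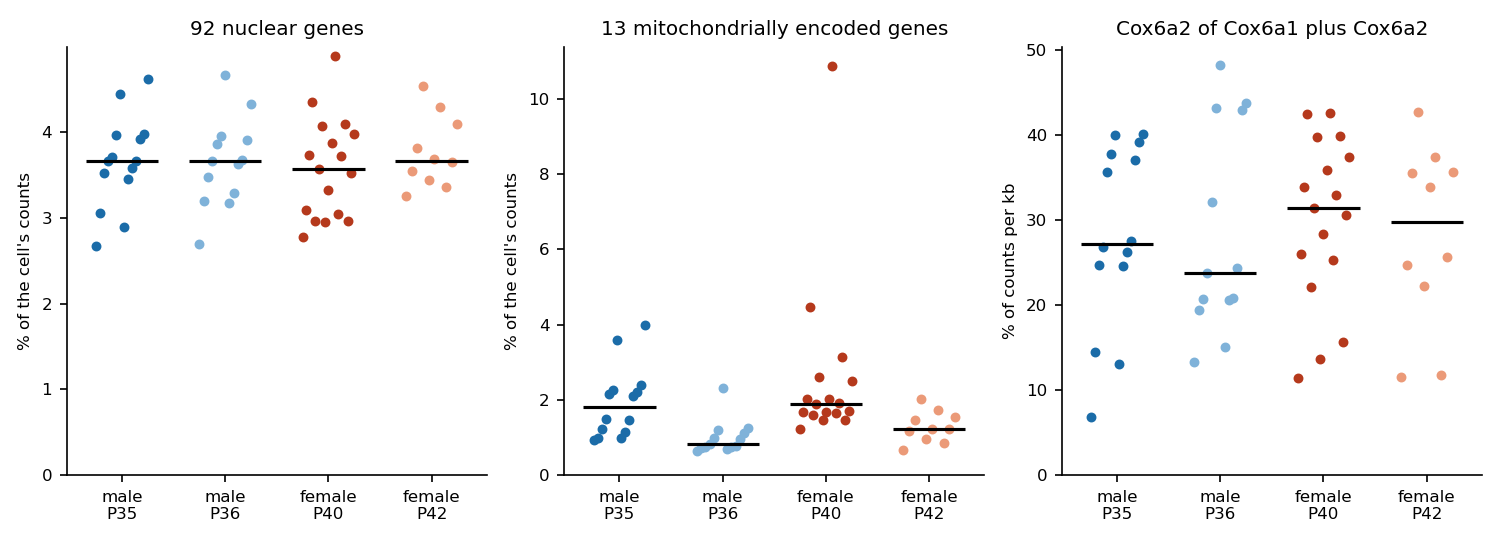
Each point is 1 of the 54 Pass cells, by pool, and the bar is the pool median; the axes give the percent of the cell's counts in the 92 nuclear genes and the 13 mitochondrially encoded genes, and the percent of Cox6a2 in Cox6a1 plus Cox6a2 per kilobase. The nuclear share stays between 2.67% and 4.88% in all pools, while the mitochondrial share has 1 cell far above all others in female P40 (10.9%), the next 2 being at 4.46% and 3.99%.

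The mitochondrial share also differed among pools of the same sex. Its pool medians were 1.80% and 0.824% for males at P35 and P36, and 1.89% and 1.23% for females at P40 and P42. The summed level of 6 microglial markers had pool medians in the same order, 164, 62.9, 259 and 67.2 CPM, and a rho of 0.59 with the mitochondrial share over the 54 cells. Within the pools that rho was 0.55, 0.17, 0.03 and 0.66. The summed red blood cell markers had a rho of 0.32 and the oligodendrocyte markers 0.35. Without female P40 cells 3 and 15 the microglial, red blood cell and oligodendrocyte values were 0.59, 0.26 and 0.33. Total counts had -0.16 over all cells, -0.47 within each male pool, -0.05 within female P40 and 0.10 within female P42. The nuclear share had rho of -0.05, 0.00 and -0.12 with the microglial, red blood cell and oligodendrocyte markers, the last reaching -0.75 within female P42. Its rho was 0.44 with the PV interneuron markers (from -0.08 in female P42 to 0.84 in male P36), -0.27 with excitatory and -0.26 with astrocyte markers. With Gad1 alone the nuclear share had a rho of 0.40, and with Pvalb alone 0.20. The part of these other cells in either share was not tested.

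Membrane measures recorded from the same cells, named vrest, rm and cm in the labels, were given for 49 Pass cells each, and all 3 for 47. Over these cells vrest had a rho of 0.16 with the nuclear share and 0.07 with the mitochondrial share, rm -0.06 and 0.23, and cm 0.03 and -0.20. The pools differed in sign: for vrest and the nuclear share rho ran from -0.18 in female P40 to 0.54 in male P35, and for vrest and the mitochondrial share from -0.41 in female P42 to 0.37 in male P36. For vrest and the share of Cox6a2 in both Cox6a isoforms, rho was -0.02 over the 49 cells and -0.85 within female P42. That pool has 10 cells, but its cells 6, 8 and 10 carry no vrest, so its vrest correlations rest on the others only.

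Within the mitochondrial genome the genes had very unequal levels. The median levels per kilobase were 3722 for mt-Nd1, 3504 for mt-Cytb and 2357 for mt-Co1, and these 3 genes took 71.3% to 83.6% of the mitochondrial counts of a cell. The next were mt-Nd4 (844), mt-Nd2 (761), mt-Nd6 (627) and mt-Nd5 (492). The other 6 were lower: mt-Atp8 (112), mt-Atp6 (77.5), mt-Co3 (64.1), mt-Co2 (35.1), mt-Nd3 (20.7) and mt-Nd4l (11.4). These 6 lie side by side on the mitochondrial genome, from mt-Co2 to mt-Nd4l, and in 54 of 54 cells the highest of them was below the lowest of the other 7. They held 1.23% of mitochondrial counts in the median cell. The contrast splits complex IV, whose catalytic core is made of mt-Co1, mt-Co2 and mt-Co3, and the grouping was made after the levels were seen.

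This stretch of the mitochondrial genome has a copy in nuclear DNA. The annotation (GENCODE vM21, GRCm38) lists 7 genes on the minus strand of chromosome 1, within chr1:24611535-24616197, whose sequences match mitochondrial genes. Gm28661 matches 681 of 681 aligned bases of mt-Co2, Gm10925 678 of 678 of mt-Atp6, Gm28437 783 of 783 of mt-Co3, Gm10222 294 of 294 of mt-Nd4l and Gm28439 876 of 876 of mt-Nd4. Gm28438 matches 344 of 345 bases of mt-Nd3 and Gm29216 486 of 492 at the end of mt-Co1. A read of mt-Co2 therefore has a second exact place in the genome, whereas mt-Co1 has mismatches at the edge of its copy. For each pair, 60 bases of the mitochondrial gene and of the nuclear copy are given along the gene. Capitals mark mismatched bases and there are 0 in the first pair and 6 in the second. Their places are chrM:7313-7372 and chr1:24615206-24615265 for the first pair, and chrM:6381-6440 and chr1:24616138-24616197 for the second, plus strand on M and minus strand on chromosome 1.
mt-Co2: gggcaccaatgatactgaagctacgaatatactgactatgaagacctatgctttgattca
Gm28661: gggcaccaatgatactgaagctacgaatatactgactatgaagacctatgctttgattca
mt-Co1: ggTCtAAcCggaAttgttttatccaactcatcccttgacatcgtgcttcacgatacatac
Gm29216: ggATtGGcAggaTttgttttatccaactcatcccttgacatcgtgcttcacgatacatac

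Counted over all windows of 50 bases, the share also found in another annotated gene was 100% for mt-Co2, 99.9% for mt-Co3, 99.5% for mt-Atp6, 98.8% for mt-Nd4l and 98.0% for mt-Nd3. It was 62.2% for mt-Nd4, 51.1% for mt-Co1, 8.19% for mt-Nd2, 7.61% for mt-Nd5 and 0% for mt-Nd1, mt-Nd6 and mt-Cytb. mt-Atp8 also had 0%, because chr1:24614652-24614884, where its copy would fall between those of mt-Co2 and mt-Atp6, carries no annotated gene. Level per kilobase and shared windows had a rho of -0.69 over the 13 genes, which are neighbours on 1 genome. The sources used here do not say how reads with several places were counted, so the part of shared sequence in these levels was not tested.

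**Figure D4:**
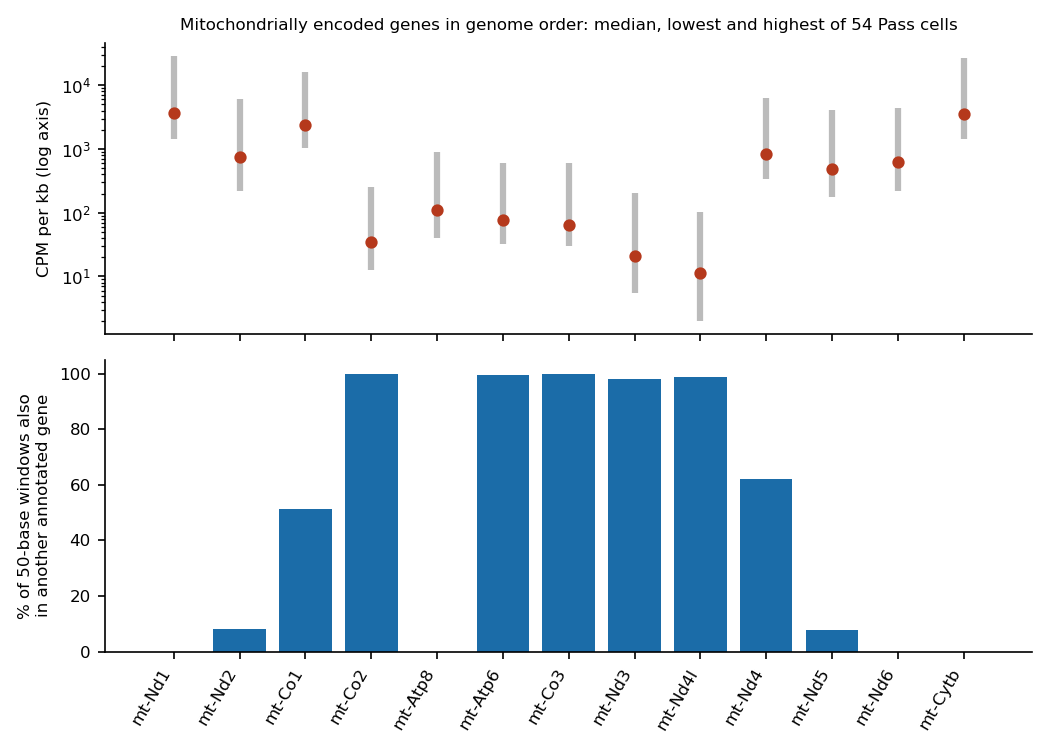
The 13 mitochondrially encoded genes in genome order. The upper panel gives CPM per kilobase on a log axis (point, median of 54 Pass cells; bar, lowest to highest cell), and the lower panel the percent of 50-base windows also present in another annotated gene. The 6 genes from mt-Co2 to mt-Nd4l have the lowest medians, 11.4 to 112, and 5 of them have 98.0% to 100% shared windows.

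Nuclear members were touched less by shared sequence. Of 92, 45 had 0 shared windows and 23 had at least 10%. Ndufaf2 (80.9%, with the overlapping gene B230220B15Rik) was the highest, followed by Ndufs3 (39.7%) and Ndufb4 (37.0%), and the levels of these 3 are uncertain for that reason. Cox6a1 had 7.18% and Cox6a2 3.33%. Over the 74 ubiquitous subunits, level per kilobase and shared windows had a rho of -0.22.

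The series names sex-dependent diversity of inhibition in its title, so the members were compared between the female and male pools. None of the 102 tested members passed in edgeR's quasi-likelihood test on pool sums (smallest Benjamini-Hochberg adjusted p = 0.909), beside 2 of 14933 genes in all (0.0134%). At an unadjusted p under 0.05 the count was 0 of 102 members, against 5.51% of all genes. DESeq2 also called 0 members, beside 1.2% of all genes, and had 3 of 102 at an unadjusted p under 0.05, against 8.63% of all genes.

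The nuclear genes lay on both sides of 0. Of 89, 44 had a log2 difference above 0 and 45 below, against 50.5% above 0 over all genes, and the median was -0.00 (0.00 over all genes). That count moved with the pools and the tool: 23 were above 0 without female P42, 63 without female P40 and 60 with limma, with medians of -0.09, 0.09 and 0.04. The median standard error of a nuclear gene was 0.18. The female pools both lay above the male pools for 9 nuclear genes (16.5% of all genes did so) and below them for 12 (17.3%), against 33.9% of all genes in either direction. By complex, the median log2 difference was -0.02 in I (43 genes), -0.06 in II (4), -0.04 in III (8), 0.06 in IV (17) and 0.00 in V (17).

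The members nearest to the threshold in each direction were these. Cox8b, the muscle isoform of a complex IV subunit, stood at 2.86 and 7.06 CPM in male P35 and P36 and at 9.37 and 26.5 CPM in female P40 and P42, a log2 difference of 1.85 (SE 0.81, edgeR adjusted p = 0.909). The pools did not overlap, but at these levels a single cell weighs heavily: female P42 cell 9 alone had 135 CPM against a median of 8.54 in its pool, and without female P42 the difference was 0.93. In the other direction Uqcrc2, a core protein of complex III, had 510 and 449 CPM in males and 346 and 405 CPM in females (log2 -0.35, SE 0.17). Ndufaf7, a complex I assembly factor, stood at 101 and 123 against 90.2 and 87.2 CPM (-0.33, SE 0.22). Atp5g1, 1 of the c-ring genes, stood at 817 and 826 against 624 and 778 CPM (-0.23, SE 0.17). For these 3 the pools did not overlap, with edgeR adjusted p of 0.931, 0.980 and 0.981. Uqcrc2 shares 24.8% of its 50-base windows with an overlapping gene, Pdzd9.

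All 13 mitochondrially encoded genes had log2 differences above 0, from 0.43 to 0.90 with a median of 0.76, and for 0 of 13 did the pools separate. mt-Nd1, a membrane core subunit of complex I, had 3857 and 2318 CPM in males against 6995 and 3480 CPM in females, so female P42 lay below male P35 (log2 0.76, SE 0.34, edgeR adjusted p = 0.917). mt-Nd4, another membrane subunit of complex I, stood at 1225 and 707 against 2210 and 1056 CPM (0.76, SE 0.37, edgeR adjusted p = 0.931). The median over the 13 was 0.01 without female P40, 0.41 without male P36, 1.19 without female P42, and 0.33 without female P40 cells 3 and 15, of which cell 3 gave 29.0% and cell 15 11.7% of the female mitochondrial counts. With no filter on low counts edgeR called 3 members, mt-Nd1 (adjusted p = 0.00863), mt-Nd4 (0.0146) and mt-Cytb, beside 0.547% of all genes; over the other alternatives the adjusted p of mt-Nd1 was 0.186 or higher.

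**Figure D5:**
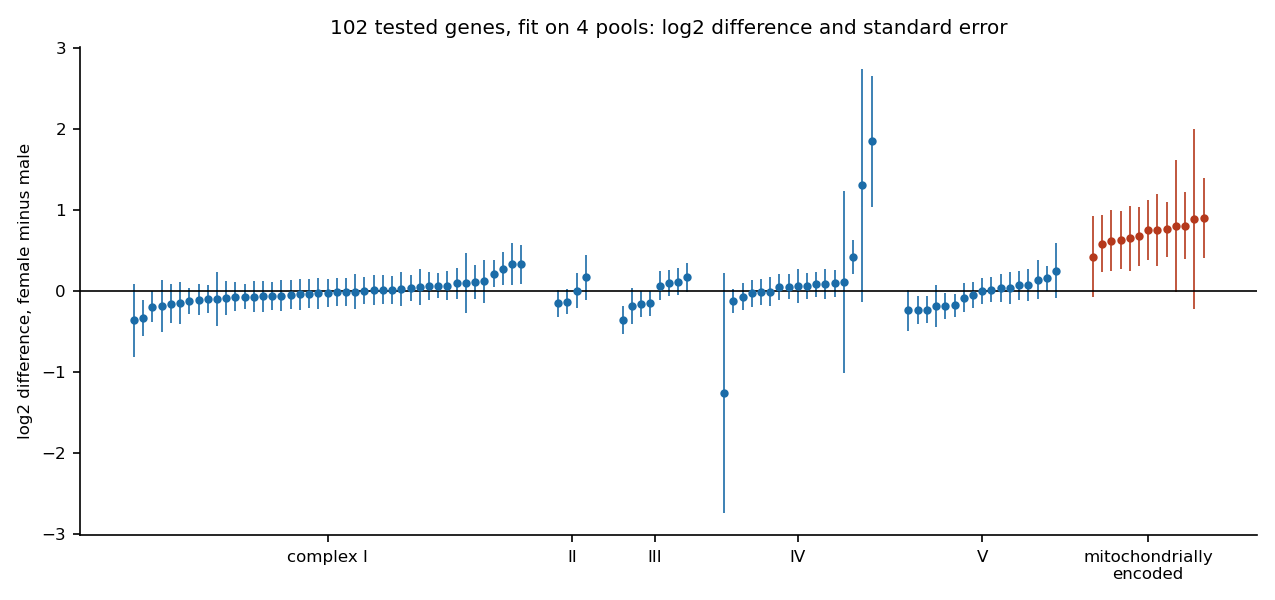
log2 difference, female minus male, of the 102 tested members with its standard error, fitted on 4 pools and sorted within each complex; the mitochondrially encoded genes are at the right. The 89 nuclear genes scatter around 0 (86 of them within 1 on the log2 scale), and the 13 mitochondrially encoded genes lie between 0.43 and 0.90.

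Measured as shares, the sexes overlapped. The pool medians of the nuclear share were 3.66% at both male ages, 3.57% in females at P40 and 3.67% at P42, a difference of -0.0462 percentage points (exact two-sided permutation p = 1). The mitochondrial share differed by 0.25 points (p = 0.667) and the log2 ratio of nuclear to mitochondrial counts by -0.25 (p = 0.667), in the same exact permutation test. The ratio itself had pool medians of 1.23, 1.95, 0.97 and 1.72, so the 2 pools of a sex differed by more than the sexes did.

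The other genes of the pathway gave 0 calls in the same fit. They were 2 genes (Cycs for cytochrome c and Cyc1 of complex III), 36 assembly factors, 14 control genes and 10 transport and buffering genes. At an unadjusted p under 0.05 the counts were 0, 0, 0 and 1 gene. That gene was Ucp2, an inner-membrane carrier known from microglia as well as neurons, at 9.55 and 9.99 CPM in males against 45.1 and 22.7 CPM in females (log2 1.79, SE 0.51, edgeR adjusted p = 0.878). Over single cells Ucp2 had a median of 1.34 CPM and a highest value of 403 CPM, so few cells can carry a pool's level. The pool medians of the microglial markers were 164 and 62.9 CPM in males and 259 and 67.2 CPM in females. The part of microglia in the Ucp2 difference was not tested. The 3 X-linked members Ndufa1, Ndufb11 and Cox7b had log2 differences of 0.33 (SE 0.24), -0.07 (SE 0.18) and 0.09 (SE 0.18), with edgeR adjusted p of 0.981, 0.999 and 0.998.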

How the data were processed

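The deposited counts are whole-number read counts per gene and cell as the authors made them, not normalized. The submitters' processing notes name STAR, GRCm38 and edgeR. Not given in the sources used here are their versions and roles, the annotation, the program that counted reads, its use of strand and its treatment of reads with several places. Libraries were made with Nextera XT from pipette-drawn cytosol, per the labels; these name no molecular identifiers, so intervals cover counting error only.

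The members and lists were chosen with earlier results of these data known. CPM used each cell's total. Lengths (105 of 105 members; Atp5sl under a newer symbol), gene positions and 50-base windows came from GENCODE vM21. Pass cells were summed into 4 pools; 14933 genes with a count in at least 10 cells that passed filterByExpr were tested (edgeR 4.0.16, R 4.3.3, TMM, quasi-likelihood, two-sided, adjusted p under 0.05). P-values measure only the spread between these pools, which share no animal only if none was sampled at both ages of its sex. DESeq2 1.42.0 and limma 3.58.1 were alternatives, with other normalization, filters, thinning and leaving out each pool.

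Named were the 2 highest and the lowest members per complex, all Sdh and mitochondrial genes, the isoform families, the 3 members per direction of smallest p, and the 5 genes most like Cox6a2; other names were chosen after their values were seen. The deposited normalized values were not used.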

Additional observations from a re-analysis of the deposited data

Results flagged for a closer look

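Cox8b stood out in 1 cell. Female P42 cell 9 held 134.855 CPM of Cox8b, the muscle isoform of a complex IV subunit, whereas the next cell of its pool held 55.5 CPM and the pool's median was 8.54 CPM. The gap to the next cell was 0.591 of the pool's whole range. The female P42 pool, of 10 cells, was the only 1 of a size at which single cells were examined, and 15 values were examined there. For normally distributed values, chance alone sets 1 value apart in about 1 of 20 groups. Cox8b was skewed in this pool, with a mean of 24.4 CPM against that median, so this rate does not apply to it.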

How the results depend on the processing

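Of the alternatives run, 153 of 180 values kept their direction and side of the threshold or, with no test, moved by less than the spread. For the share and ratio differences only the direction could be judged, because the exact permutation test gives no p below 0.33. The Cox6a2 share difference thus counted as kept, although it was 5.15 points with pool medians and 0.163 points in summed counts. For these differences the count does not measure how stable their size was. The number of genes called, 2, was 179 with DESeq2, 111 with no filter on low counts and 0 to 26 when 1 pool was left out; the number of members called was 3 with no filter and 0 otherwise. The median log2 difference of the mitochondrially encoded genes, 0.76, was 0.32 with limma, 0.36 after thinning, 0.33 without female P40 cells 3 and 15 (an alternative added after seeing the data) and 0.013 to 1.19 when 1 pool was left out. The mitochondrial share difference ran from -0.235 to 0.736 points and the log2 ratio difference from -0.62 to 0.13 with 1 pool left out. The nuclear share difference, -0.0462 points, was 0.0217 with means, 0.0322 without the same 2 cells and -0.0968 to 0.00446 points with 1 pool left out. With the longest transcript as length, complexes I to V stood at 249, 293, 382, 486 and 474 CPM per kilobase, and complex III at 311 in male cells. The cause of these changes was not tested. With 2 pools per sex, only large differences can pass, and sex, age and animals cannot be told apart. No paired analysis was possible because the pools carry no shared replicate numbers, and cell numbers are names in accession order.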

Other observations

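The 4 cells labelled Fail entered no comparison. Their nuclear oxidative phosphorylation share was 3.64% and 2.67% in the male P35 cells and 3.94% and 5.50% in the female P40 cells, the last of these above the highest Pass cell (4.88%). Their mitochondrially encoded share was 1.66%, 1.19%, 2.47% and 1.30% in the same order. Cox6a2 was at 199.8, 85.5, 176 and 370 CPM, and its share in Cox6a1 plus Cox6a2 per kilobase was 32.0%, 19.2%, 24.3% and 31.9%. Total counts were 0.836, 0.596, 0.545 and 5.08 M, of which the first 3 lie below the shallowest Pass cell (2.05 M).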
